A study of Mus musculus with 28 samples.

Results

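The genes described here are 32 genes that carry glucose into the cell, break it down to pyruvate, turn pyruvate into lactate and back, and admit pyruvate to the mitochondrion. They were picked by symbol from a table of 37620 genes, not by a threshold on any measured value. These genes are called the members below. Each of the 32 symbols was found once, and all 32 passed the filter on low counts, so all were tested. They fall into 7 roles. There are 2 glucose transporters (Slc2a1, Slc2a3) and 8 genes of the stretch from glucose to triose phosphates (Hk1, Hk2, Gpi1, Pfkl, Pfkm, Pfkp, Aldoa, Aldoc). The 4 Pfkfb genes (Pfkfb1 to Pfkfb4) encode the enzymes that set the level of fructose-2,6-bisphosphate. A further 7 genes belong to the stretch from triose phosphates to pyruvate (Tpi1, Gapdh, Pgk1, Pgam1, Eno1, Eno2, Eno3). Lactate is handled by 4 genes (Ldha, Ldhb, Slc16a1, Slc16a3). The last 2 roles are the 4 pyruvate dehydrogenase kinases (Pdk1 to Pdk4) and 3 subunits of the pyruvate dehydrogenase complex (Pdha1, Pdhb, Dlat).

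The study sequenced poly(A) RNA from mouse cells on the way from embryonic fibroblasts (MEFs) to induced pluripotent stem cells (iPSCs), in cells with a lysine-to-methionine histone mutation (K36M) and in WT cells, whose library names read H3_3. The 14 groups are K36M and WT cells at each of 7 stages, with 2 libraries a group and 28 libraries in all. The stages are d0 MEFs in serum medium, intermediates at d2, d4, d6 and d8 in a medium called AGi, passaged iPSCs in a serum and LIF medium (S/L), and MEFs labelled noOKSM. OKSM is the usual short name of the reprogramming factors Oct4, Klf4, Sox2 and Myc. The stage and the medium cannot be told apart wherever MEFs or iPSCs are compared with d2 to d8, whereas K36M and WT cells of 1 stage share their medium. The noOKSM libraries carry another library prefix than the d0 libraries. A difference between noOKSM and d0 MEFs and one between library sets therefore cannot be told apart. The medium and the time in culture of the noOKSM MEFs are not given here, so the contrast with d0 is not one of OKSM alone. The sources used here do not give the promoter that drives K36M or OKSM, nor whether the 2 libraries of a group are separate cultures. The p-values therefore measure the spread between libraries, which may be technical. In the fit over d2 to d8 used below, that spread also holds any change of the K36M difference from day to day.

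Glycolysis splits 1 glucose into pyruvate with a small yield of ATP, and its committed step, catalysed by phosphofructokinase, is switched on by fructose-2,6-bisphosphate. Pyruvate is then either reduced to lactate, which leaves the cell through monocarboxylate transporters, or oxidised by the pyruvate dehydrogenase complex, which the Pdk kinases switch off by phosphorylation. Pluripotent stem cells are known for high glycolytic flux, and the move of fibroblasts towards pluripotency is known for a shift from oxidative to glycolytic metabolism. Many of these genes are textbook targets of the hypoxia-inducible factors, which bind DNA at the core letters ACGTG.

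Promoter windows of 4 members are printed because these genes carry the results below: Slc16a3 and Slc2a1 with the widest K36M differences at d6 and at d8 among members that have a window, Ldha as the lactate-forming enzyme with most core letters, and Pdk1 as a hypoxia target whose difference turned round between d4 and d6. Each window runs from 250 bases before to 50 bases after an annotated start, from RefSeq, and was placed in mm9 by exact match. Capitals mark ACGTG on either strand (CACGT on the printed one). The windows lie at chr11:120810131-120810430 on the plus strand (Slc16a3), chr4:118781100-118781399 on the plus strand (Slc2a1), chr7:54100924-54101223 on the plus strand (Ldha) and chr2:71711031-71711330 on the plus strand (Pdk1).
Slc16a3: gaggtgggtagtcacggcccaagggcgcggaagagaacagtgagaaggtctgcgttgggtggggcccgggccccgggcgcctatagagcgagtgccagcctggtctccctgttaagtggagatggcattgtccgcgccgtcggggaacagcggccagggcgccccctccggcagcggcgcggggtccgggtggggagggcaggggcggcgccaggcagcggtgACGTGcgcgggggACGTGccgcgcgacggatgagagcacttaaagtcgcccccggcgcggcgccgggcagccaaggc
Slc2a1: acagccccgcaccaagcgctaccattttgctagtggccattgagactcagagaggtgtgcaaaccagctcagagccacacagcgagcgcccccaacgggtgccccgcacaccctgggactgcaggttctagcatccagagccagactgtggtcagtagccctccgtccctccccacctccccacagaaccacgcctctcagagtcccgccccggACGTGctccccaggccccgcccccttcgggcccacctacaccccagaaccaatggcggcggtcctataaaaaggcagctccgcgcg
Ldha: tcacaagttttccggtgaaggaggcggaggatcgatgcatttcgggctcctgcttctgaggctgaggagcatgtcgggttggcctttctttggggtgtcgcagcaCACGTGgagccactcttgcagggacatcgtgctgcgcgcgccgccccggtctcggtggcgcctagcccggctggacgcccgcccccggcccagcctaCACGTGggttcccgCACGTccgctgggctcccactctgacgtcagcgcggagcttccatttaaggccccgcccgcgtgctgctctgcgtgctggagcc
Pdk1: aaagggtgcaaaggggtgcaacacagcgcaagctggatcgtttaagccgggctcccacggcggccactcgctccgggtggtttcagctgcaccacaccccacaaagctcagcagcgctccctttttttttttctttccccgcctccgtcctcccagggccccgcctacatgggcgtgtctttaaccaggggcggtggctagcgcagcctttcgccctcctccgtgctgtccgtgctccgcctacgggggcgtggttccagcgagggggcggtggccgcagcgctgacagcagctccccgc
The Slc16a3 window holds 2 matches and the Slc2a1 window 1 match. The printed Ldha window holds 5, of which the 2 palindromes CACGTG count once on each strand, and the printed Pdk1 window holds 0. Ldha and Pdk1 each have 2 windows, and the window of each that is not printed holds 0. RefSeq windows were at hand for 31 members, 49 windows in all, and Slc2a3 is named only. ACGTG occurred in 21 of the 49 windows (42.9%), against 19.6% of 32851 windows of the same length genome-wide. The members' windows were also richer in G and C, with a median of 60.3% against 52.7%. The E-box CACGTG, which contains ACGTG, was in 12.2% of members' windows and 7.15% of all windows. The Esrrb half-site AAGGTCA was in 6.12% and 4.72%, and the GC box GGGCGG in 51% and 35.7%. These matches describe letters, not binding, and windows of 1 gene can overlap.

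The libraries held 17507521 to 35622279 counts, of which the 32 genes took 0.568% to 1.81%. Levels below are CPM, counts scaled by TMM to a common library size of 1e6, and a call is an adjusted p below 0.05 in edgeR's quasi-likelihood F test with Benjamini-Hochberg adjustment over all 16932 genes tested. The K36M d6 libraries stood apart: they correlated at 0.9797 on the log2 CPM scale, against 0.9931 to 0.996 for the other pairs, and 9 of the 32 genes were more than 1.5-fold apart between them, 7 of them higher in replicate 1 and 2 in replicate 2. The state of the cells moved with genotype. The summed level of 8 pluripotency markers was 1697 and 1032 CPM in K36M d6 cells, against 82.8 and 74.6 CPM in WT d6 cells, and it was 1528 and 1499 against 321 and 315 CPM at d8. The sum of 8 epithelial markers was 3466 and 3364 CPM in K36M d8 cells, against 976 and 891 CPM in WT d8 cells, and that of 8 fibroblast markers 106 and 123 against 2055 and 1944 CPM. Over d2 to d8, 8 of 8 pluripotency and 8 of 8 epithelial markers were called higher and 8 of 8 fibroblast markers lower in K36M cells. The part of this difference in cell state in the results below was not tested, and in bulk RNA fewer cells of a type and less RNA per cell cannot be told apart. At d0 the labels held: the fibroblast sum was 21430 to 29170 CPM and the pluripotency sum at most 1.02 CPM in the 4 libraries. In the 4 iPSC libraries the pluripotency sum was 4810 to 5124 CPM. The fibroblast sum there was 814 to 1333 CPM, above the K36M d8 and below the WT d8 libraries. The iPSC libraries were thus not free of fibroblast marker RNA. A count per gene cannot tell the K36M histone from the endogenous one, so it does not check the genotype.

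Calls between K36M and WT cells were most numerous at d6 and d8 among these genes, and also among all genes tested. At d6, 24 of 32 members were called, beside 12014 of 16932 genes, and at d8 23 members beside 10261 genes. Most of the members' calls on both days were higher in K36M cells, and no member was called in iPSCs. At d0, 4 members were higher and 4 lower in K36M cells, where 7.6% and 8.31% of all genes tested were called higher and lower, and 2 were higher and 3 lower without K36M d0 replicate 2. At d2, 8 were higher and 3 lower, against 9.74% and 10.4% of all genes. The d2 count of 11 was 6 without K36M d2 replicate 1 and 21 in a fit of the d2 libraries alone. At d4 the calls were even, with 9 higher and 9 lower, against 27.1% and 25.8% of all genes. At d6, 19 were higher and 5 lower, against 37.3% and 33.7%, and the calls were 20 and 6 without K36M d6 replicate 1 and 19 and 6 without replicate 2. At d8, 20 were higher and 3 lower, against 31.6% and 29%. The median log2 fold change over the 32 members was -0.03 in d0 MEFs, 0.07 at d2 and 0.08 at d4, then 0.64 at d6 and 0.38 at d8, beside medians over all genes of 0.00, 0.00, 0.02, 0.08 and 0.04. In the fit of d2 to d8 that adjusts for day, 14 of 32 were higher and 4 lower, against 30.2% and 28.2% of the 15954 genes tested in those 16 libraries, and 13 and 3 without the d6 libraries. Whether the K36M difference changed along the course was tested jointly against d0, and it did for 29 of the 32 genes, against 75.8% of all genes. Pfkfb4, Pdha1 and Dlat were not called in that joint test, with edgeR adjusted p of 0.164, 0.685 and 0.265.

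**Figure D1:**
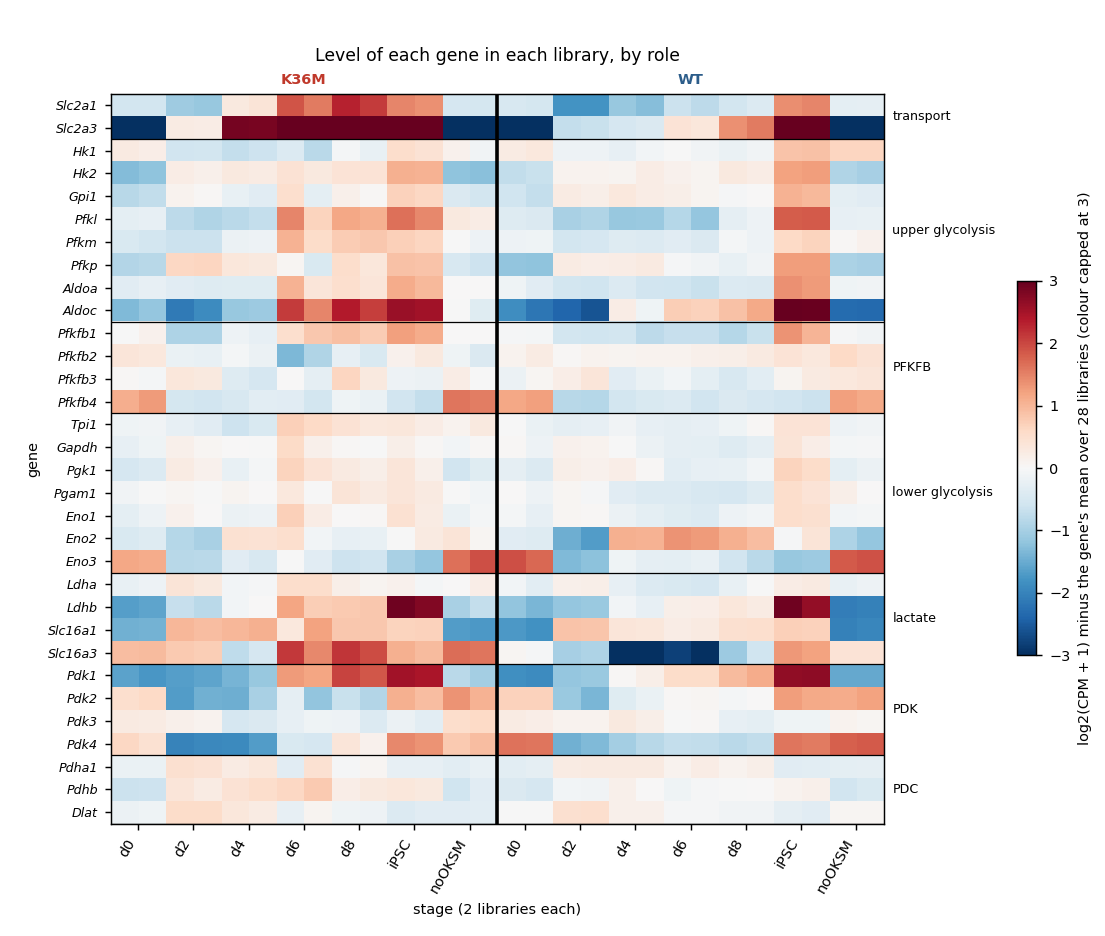
Level of the 32 genes (rows, by role) in each of the 28 libraries (columns, 2 per stage, K36M left of WT), coloured by log2(CPM + 1) minus the gene's mean over the libraries and capped at 3. Slc2a1, Slc2a3, Pfkl, Aldoc and Slc16a3 are red in K36M cells at d6 and d8. On those days 19 and 20 of the 32 genes were called higher than in WT cells, beside 37.3% and 31.6% of all genes. In WT cells 23 of the 32 rows peak in iPSCs, noOKSM left aside.

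Both glucose transporters were higher in K36M cells from d2 to d8. Slc2a3 (chr6:122677827-122751658, minus strand, mm9) encodes the high-affinity transporter GLUT3 of neurons and early embryos. It was at 9.11 and 8.47 CPM in K36M d0 cells, against 5.42 and 5.31 in WT d0 cells. At d2 it stood at 212 and 207 CPM in K36M cells, against 109 and 111 in WT cells, and at d4 at 1300 and 1295 against 125 and 131. The groups drew apart most at d4, because the K36M level was several times that of d2 while the WT level was nearly that of d2. At d6 K36M cells had 2001 and 2014 CPM, against 238 and 227 in WT cells, and at d8 3245 and 3044 against 462 and 529. In iPSCs the levels were 1694 and 1545 CPM in K36M cells and 1744 and 1638 CPM in WT cells, so that the K36M d6 and d8 libraries lay above every iPSC library and the WT ones far below. The log2 fold change was 0.71 ± 0.122 (SE) in MEFs and 0.93 ± 0.0914 at d2. It was 3.34 ± 0.0982 at d4 and 3.11 ± 0.097 at d6, and 2.67 ± 0.095 on the last day. All these were called. The edgeR adjusted p was 1.91e-17 at d4.

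Slc2a1 (chr4:118781316-118809935, plus strand) encodes GLUT1, the general transporter of basal glucose uptake. It was at 135 and 134 CPM in K36M d0 cells, against 142 and 138 in WT d0 cells, with no call. At d2 it was lower than at d0 in both genotypes, at 93.0 and 89.0 CPM in K36M cells and 56.2 and 56.3 in WT cells. It then climbed in K36M cells to 241 and 260 at d4, 732 and 585 at d6 and 977 and 842 CPM at d8, against 89.4 and 81.1, 127 and 113, and 135 and 149 CPM in WT cells. WT cells thus came back to their d0 level by d8, while each K36M d8 library was above the highest iPSC library, at 550 CPM. The log2 fold change was 0.69 ± 0.102 at d2 and 1.56 ± 0.102 at d4, then 2.46 ± 0.105 at d6 and 2.68 ± 0.105 at d8. Per kilobase of exon, Slc2a3 made up 2.51% of the 2 transporters' transcripts in K36M d0 cells and 1.49% in WT d0 cells. At d4 that share was 67.1% in K36M and 37.2% in WT cells, and at d8 it was 57.7% and 57.9%.

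**Figure D2:**
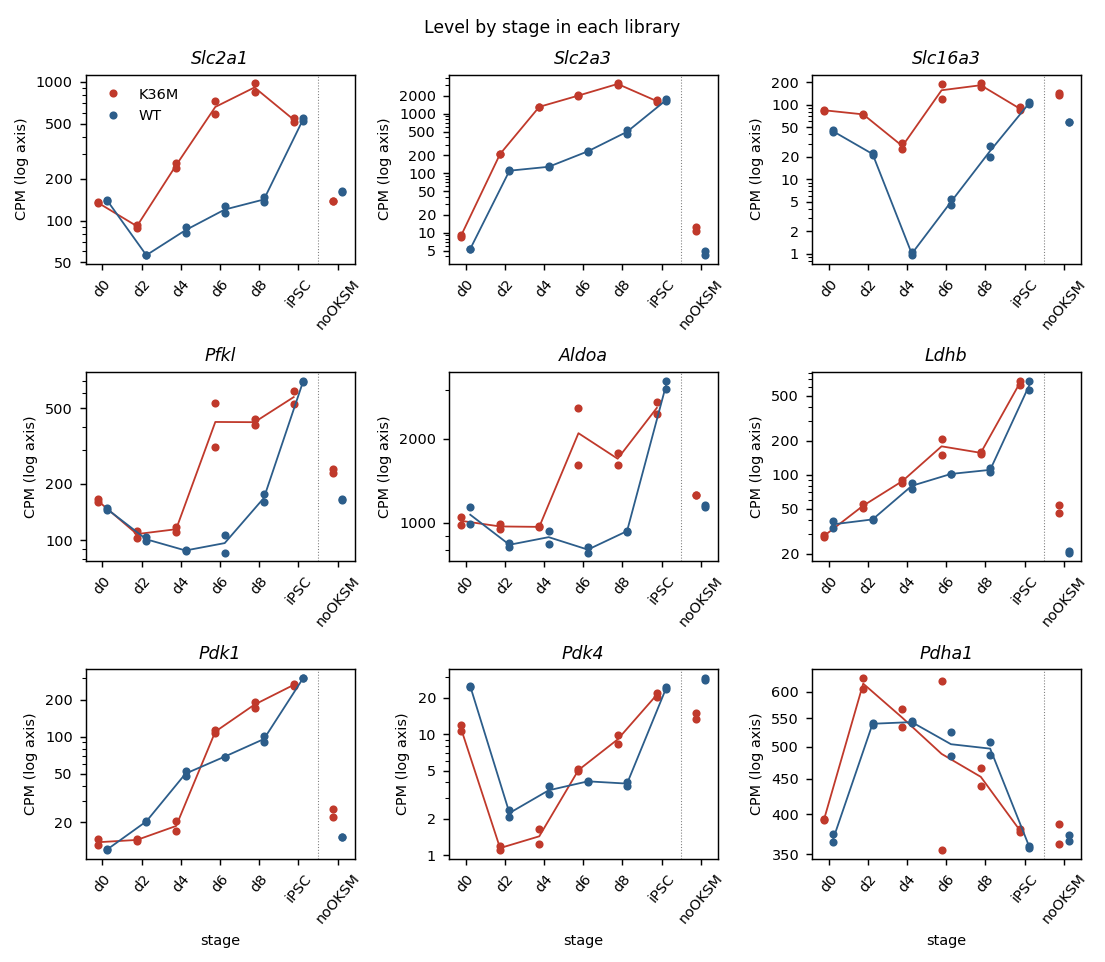
CPM of 9 genes on log axes by stage, with K36M points left of WT points, 1 point per library and lines through the means from d0 to iPSC, and noOKSM MEFs apart on the right. Slc2a1, Slc2a3 and Slc16a3 lie apart by genotype from d2 to d8 and meet in iPSCs, and the lines of Pdk1 cross between d4 and d6.

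Among the genes from glucose to triose phosphates, 5 of 8 were higher and 1 lower in K36M cells at d6. The shares of all genes called there were 37.3% and 33.7%. At d8 5 of 8 were higher, beside 31.6% of all genes. At d4 1 was higher and 3 were lower, beside 27.1% and 25.8%. Pfkl (chr10:77449692-77472828, minus strand), the liver-type subunit of phosphofructokinase, was at 111 and 118 CPM in K36M d4 cells, against 87.6 and 89.4 in WT d4 cells. At d6 it reached 535 and 312 CPM in K36M cells, against 108 and 86.2 in WT cells, and at d8 438 and 407 against 161 and 175. The K36M d6 libraries differ widely from each other, and both still lie above each WT library. Its log2 fold change was 0.37 ± 0.154 at d4, 2.13 ± 0.158 at d6 and 1.33 ± 0.153 at d8. Its value over d2 to d8 was 0.96 ± 0.236, and 0.60 without the d6 libraries. Pfkm, the muscle-type subunit, was at 114 and 80.4 CPM in K36M d6 cells, against 43.0 and 40.1 in WT d6 cells, and at 94.0 and 97.5 against 52.5 and 49.3 at d8. Its log2 fold change was 1.23 ± 0.111 at d6 and 0.91 ± 0.11 at d8. Its value over d2 to d8 was 0.55 ± 0.155, and 0.34 without the d6 libraries, where the call was lost (edgeR adjusted p 0.0533). Pfkp, the platelet-type subunit, differed in another way: it was 0.60 ± 0.112 higher at d8 and was not called at d6, at 188 and 130 CPM in K36M cells and 176 and 167 in WT cells. The sign of its d6 value rested on 1 library, at -0.40 without K36M replicate 1 and 0.13 without replicate 2. The Pfkl call at d4 was lost without any 1 of the 4 libraries (highest edgeR adjusted p 0.185), and the Pfkp calls at d0 and d2 were lost likewise, with highest edgeR adjusted p of 0.18 and 0.092. The small Pfkm decrease at d0 (log2 -0.36 ± 0.112) was also lost without any 1 of the 4 libraries (0.185).

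The phosphofructokinase mix differed between the genotypes most at d6. Per kilobase of exon, Pfkl made up 61.5% of the 3 subunits in K36M d0 cells and 57.6% in WT d0 cells. The share was lower at d4 in both, at 39.6% and 35.7%. At d6 it was 65.9% in K36M and 40.8% in WT cells, and in iPSCs it was 67% and 68.1%. Pfkp took 11.8% in K36M d6 cells and 33.9% in WT d6 cells.

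Aldolase cuts the hexose bisphosphate into trioses. Aldoa, the common isozyme, was at 2581 and 1609 CPM in K36M d6 cells, against 823 and 783 in WT d6 cells, and at 1777 and 1618 against 939 and 932 at d8. The K36M libraries were above the WT libraries at both days, with log2 fold changes of 1.38 ± 0.137 and 0.86 ± 0.136. Over d2 to d8 it was 0.63 ± 0.157, and 0.40 without the d6 libraries. Aldoc, the brain-type isozyme, was scarce and at most 1.82% of aldolase per kilobase. It was at 2.71 and 2.82 CPM in K36M d4 cells, against 8.49 and 6.44 in WT d4 cells, then at 33.8 and 21.4 against 12.5 and 12.2 at d6. Its K36M difference thus had opposite signs on those days: the log2 fold change was -1.41 ± 0.235 at d4, 1.16 ± 0.179 at d6 and 1.27 ± 0.172 at d8. At d0 it was 1.25 ± 0.341 from levels of 0.816 to 2.62 CPM, a call lost without either of 2 libraries (highest edgeR adjusted p 0.12). Gpi1, which interconverts glucose and fructose phosphates, was lower at d4 (log2 -0.56 ± 0.144) and not called at the other days. At d6 it was at 804 and 465 CPM in the K36M libraries, against 638 and 596 in the WT libraries, so its sign there rested on 1 library: the log2 fold change was -0.41 without replicate 1 and 0.38 without replicate 2, both called.

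The hexokinases, which trap glucose by phosphorylation, differed from each other. Hk1, the general isozyme, was lower in K36M cells at d2, d4 and d6, with log2 fold changes of -0.42 ± 0.106, -0.51 ± 0.106 and -0.55 ± 0.106. Its levels at d6 were 85.7 and 65.5 CPM in K36M cells and 114 and 107 CPM in WT cells, and at d8 the genotypes did not differ by the test (0.02 ± 0.105). Hk2, the inducible isozyme, was lower in K36M MEFs, at 90.4 and 96.3 CPM in K36M d0 cells and 135 and 140 in WT d0 cells (-0.56 ± 0.0787). At d6 it was slightly higher (0.25 ± 0.0774), at 303 and 278 CPM in K36M cells and 248 and 239 in WT cells. Hk2 made up 49.6% of the 2 hexokinases per kilobase in K36M d0 cells and 58.5% in WT d0 cells, and 82.5% and 76.9% at d2. The Hk1 call at d2 was lost without K36M replicate 1 (edgeR adjusted p 0.0606), and the Hk2 call at d6 without WT replicate 2 (0.0521). Hk2 over d2 to d8 was 0.14 ± 0.0554 higher, a call lost without any 1 of 10 libraries (highest edgeR adjusted p 0.08).

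**Figure D3:**
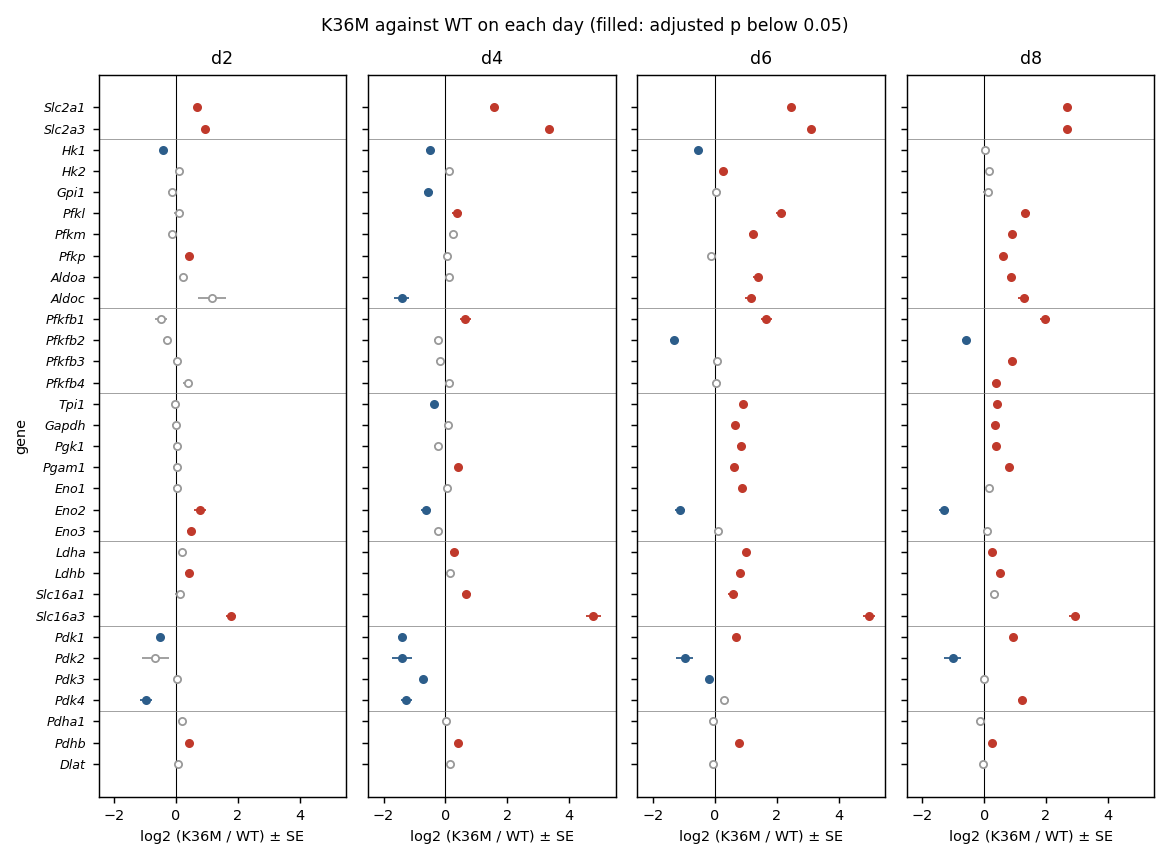
Log2 fold change of K36M over WT cells with its standard error (bars) for the 32 genes, by role, at d2, d4, d6 and d8; filled points have an edgeR adjusted p below 0.05, red where higher and blue where lower in K36M cells, and open points do not. Slc2a1, Slc2a3 and Slc16a3 lie to the right on each day, and all 4 Pdk genes lie to the left at d4.

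The Pfkfb genes encode bifunctional enzymes that make and remove fructose-2,6-bisphosphate. Their levels were low, and they moved in unlike ways. Pfkfb2, the heart-type enzyme, was at 8.40 and 11.8 CPM in K36M d6 cells, against 24.7 and 25.7 in WT d6 cells (log2 -1.32 ± 0.132), and at 19.2 and 16.6 against 26.0 and 28.0 at d8 (-0.60 ± 0.126). WT cells kept it between 23.4 and 28.0 CPM from d0 to d8, so the dip at d6 was in the K36M libraries. Pfkfb1, the liver-type enzyme, had the lowest level per kilobase of the 32 genes. It was at 7.06 and 8.91 CPM in K36M d6 cells, against 2.53 and 2.50 in WT d6 cells, and at 9.64 and 8.66 against 2.12 and 2.55 at d8. The log2 fold change was 0.64 ± 0.177 at d4, against 1.67 ± 0.166 at d6 and 1.95 ± 0.159 at d8. Pfkfb3, the inducible enzyme that favours synthesis, was at 57.6 and 45.5 CPM in K36M d8 cells, against 26.3 and 29.3 in WT d8 cells (0.89 ± 0.124), and was not called at d0 to d6. Pfkfb4 was 0.38 ± 0.134 higher at d8, from 5.75 and 5.37 CPM in K36M cells against 4.40 and 4.19 in WT cells. Pfkfb1 over d2 to d8 was 0.97 ± 0.276 higher, and 0.73 without the d6 libraries, where the call was lost (edgeR adjusted p 0.0833). The Pfkfb1 call at d4 was lost without WT replicate 2 (edgeR adjusted p 0.0982), and the Pfkfb4 call at d8 without either of 2 libraries (highest 0.12).

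From triose phosphates to pyruvate, 5 of 7 genes were higher and 1 lower in K36M cells at d6, and 4 were higher and 1 lower at d8. The shares of all genes called higher and lower were 37.3% and 33.7% at d6 and 31.6% and 29% at d8. Gapdh, which makes the NADH that lactate formation reoxidises, was at 1880 and 1409 CPM in K36M d6 cells, against 1053 and 1036 in WT d6 cells (log2 0.66 ± 0.113). Without K36M replicate 1 that value was 0.43, still called. Pgk1, the first ATP-yielding step, was at 509 and 427 CPM against 256 and 270 (0.83 ± 0.108). Tpi1, which interconverts the triose phosphates, was lower at d4, at 329 and 369 CPM in K36M cells and 473 and 430 in WT cells (-0.37 ± 0.0944). At d6 it was on the other side, at 831 and 769 CPM in K36M cells and 424 and 429 in WT cells (0.91 ± 0.0948). Eno1, the general enolase, was called at d6 alone, at 1781 and 1272 CPM against 841 and 813 (0.88 ± 0.117). Pgam1, phosphoglycerate mutase, was higher at d4, d6 and d8, with log2 fold changes of 0.42 ± 0.102, 0.62 ± 0.102 and 0.79 ± 0.101. At d8 the differences of Gapdh (0.34 ± 0.112) and Pgk1 (0.38 ± 0.108) were smaller and did not survive the loss of WT replicate 1, with edgeR adjusted p of 0.116 and 0.0605. The Gapdh value over d2 to d8 was 0.26 ± 0.0919, a call lost without either of 2 libraries (highest edgeR adjusted p 0.0567) and, at 0.14, without the d6 libraries (0.0776).

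Eno2, the neuron-type enolase, differed in direction at d6 and d8 from the other called genes of this stretch. It was higher in K36M cells at d2, at 8.51 and 7.65 CPM against 5.19 and 4.32 in WT cells (log2 0.77 ± 0.202), a call lost without either of 2 libraries (highest edgeR adjusted p 0.108). From d4 on it was lower. K36M cells had 22.3 and 22.2 CPM at d4, 23.4 and 15.1 at d6 and 13.5 and 13.5 at d8, against 34.7 and 34.3, 42.7 and 40.4, and 34.8 and 31.6 CPM in WT cells. The log2 fold changes were -0.63 ± 0.162, -1.11 ± 0.162 and -1.30 ± 0.167. Over d2 to d8 it was -0.62 ± 0.234, a call that was lost without any 1 of 10 libraries (highest edgeR adjusted p 0.0785) and at -0.44 without the d6 libraries (0.198). Eno3, the muscle-type enolase, was lower in K36M MEFs, at 95.3 and 92.4 CPM in K36M d0 cells and 165 and 141 in WT d0 cells (-0.70 ± 0.114). It was 0.47 ± 0.126 higher at d2, lost without either of 2 libraries (highest 0.0978), and not called at d4, d6 or d8.

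All 4 lactate genes were called higher in K36M cells at d6, and 3 of 4 at d8, beside 37.3% and 31.6% of all genes. Without K36M d6 replicate 2 the d6 value of Slc16a1 was 0.07 in place of 0.59. Without WT d8 replicate 1 the d8 value of Ldha was 0.14 in place of 0.24. Slc16a3 (chr11:120809794-120822182, plus strand) encodes MCT4, the transporter that exports lactate from strongly glycolytic cells. It was at 83.4 and 85.6 CPM in K36M d0 cells, against 45.2 and 42.5 in WT d0 cells. At d2 the levels were 75.6 and 73.2 CPM in K36M and 21.3 and 22.4 in WT cells. At d4 they were 25.5 and 30.3 CPM in K36M cells and 0.955 and 1.05 in WT cells, which are 518 and 646 counts against 18 and 33 counts. Both genotypes thus had their lowest level at d4, with the WT level there near 1 CPM. At d6 the levels were 193 and 121 CPM against 5.37 and 4.57, and at d8 195 and 171 against 19.9 and 28.3. The log2 fold change was 0.95 ± 0.158 in d0 MEFs and 1.77 ± 0.163 at d2, then 4.78 ± 0.24 at d4 and 4.98 ± 0.195 at d6, and 2.92 ± 0.165 at d8. It was the highest of the 32 genes on each day but d0, where that of Aldoc was higher. The edgeR adjusted p was 1.31e-13 at d4. In iPSCs the levels were 92.1 and 85.1 CPM in K36M cells and 109 and 102 in WT cells.

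Slc16a3 shares 831 exon bases with Csnk1d on the other strand, and the strand setting of the counting is not known. Csnk1d was at 224 and 214 CPM in K36M d4 cells and 236 and 235 in WT d4 cells, while Slc16a3 was near 1 CPM in those WT cells. Slc2a1 shares 105 exon bases with Gm12868, which stayed at or under 0.201 CPM. Gpi1, Hk1, Pdha1, Pfkfb1, Pfkfb2, Pfkp and Tpi1 also share exon bases with a gene on the other strand, and their values carry the same limit. Gapdh, Pgk1, Aldoa, Eno1, Pgam1, Tpi1, Ldha and Ldhb have processed pseudogene copies with which they may share reads, so their levels are uncertain to that extent.

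Slc16a1 encodes MCT1, which carries lactate either way. It was at 212 and 221 CPM in K36M d4 cells, against 136 and 134 in WT d4 cells (log2 0.68 ± 0.151). At d6 its 2 K36M libraries disagreed, at 132 and 245 CPM, against 123 and 128 in WT cells. The d6 value was 0.59 ± 0.151, at 0.97 without K36M replicate 1 and 0.07 without replicate 2, where the call was lost (edgeR adjusted p 0.348). Per kilobase, Slc16a3 made up 64.5% of the 2 transporters in K36M d0 cells and 54.8% in WT d0 cells. At d4 it was 9.68% and 0.613%, while d6 had 42% and 3.2%, d8 45.1% and 11.9%, and iPSCs 30.4% and 33.9%. The K36M d6 libraries stood at 54.9% and 29.1%, so their place above the K36M iPSC libraries, at 31.4% and 29.4%, rested on 1 library. WT cells at d4 to d8 lay below both WT MEFs and WT iPSCs.

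Ldha, the lactate dehydrogenase subunit that favours lactate formation, was at 1636 and 1615 CPM in K36M d6 cells, against 814 and 798 in WT d6 cells (log2 1.01 ± 0.101). The d6 libraries of K36M cells agreed closely for this gene. It was also 0.26 ± 0.1 higher at d4 and 0.24 ± 0.1 higher at d8, calls lost without any 1 of 4 libraries at d4 (highest edgeR adjusted p 0.239) and of 3 libraries at d8 (0.348, where the value was 0.14). Ldhb, the subunit that favours pyruvate formation, was at 206 and 150 CPM in K36M d6 cells, against 101 and 102 in WT d6 cells (0.81 ± 0.122), and at 154 and 158 against 114 and 106 at d8 (0.50 ± 0.121). At d2 its difference of 0.40 ± 0.126 was lost without any 1 of 4 libraries (0.189). The share of Ldhb in the pair per kilobase was largest in iPSCs in both genotypes: it was 5.2% in K36M and 6.57% in WT cells at d0, 13.4% and 14.4% at d4, 19.4% and 16.8% at d8, and 51.8% and 46.7% in iPSCs.

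The Pdk kinases inactivate pyruvate dehydrogenase, and all 4 were called lower in K36M cells at d4, beside 25.8% of all genes. Pdk1 (chr2:71711281-71741915, plus strand), a hypoxia-responsive isozyme, was at 14.1 and 14.7 CPM in K36M d2 cells, against 20.1 and 20.7 in WT d2 cells. At d4 it was at 17.1 and 20.4 CPM in K36M cells and 47.7 and 52.3 in WT cells. At d6 it stood at 113 and 107 CPM in K36M cells and 68.8 and 68.8 in WT cells, and at d8 at 193 and 172 against 90.0 and 102. WT cells rose earlier and K36M cells later and higher, so the groups did not overlap on any of these days but changed order between d4 and d6. The log2 fold change was -0.50 ± 0.106 at d2 and -1.42 ± 0.101 at d4, then 0.68 ± 0.0946 at d6 and 0.93 ± 0.0937 at d8. Over the days together it was -0.06 ± 0.263 with no call, in the fit whose spread includes this change of order.

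Pdk4, the fasting-induced isozyme, was lower in K36M MEFs, at 11.9 and 10.6 CPM in K36M d0 cells and 25.1 and 24.7 in WT d0 cells (log2 -1.15 ± 0.113). It was also lower at d2 and d4 (-0.96 ± 0.199 and -1.27 ± 0.176), from levels under 4 CPM, and higher at d8, at 9.88 and 8.27 CPM in K36M cells and 3.77 and 4.06 in WT cells (1.21 ± 0.129). Pdk2 was at most 4.14 CPM from d2 to d8 in both genotypes and lower in K36M cells at d4, d6 and d8, by -1.41 ± 0.321, -0.97 ± 0.277 and -1.02 ± 0.279. The d6 value was -1.81 without K36M replicate 1 and -0.42 without replicate 2, where the call was lost (edgeR adjusted p 0.112). Pdk3 was at 35.6 and 37.7 CPM in K36M d4 cells and 63.1 and 57.4 in WT d4 cells (-0.72 ± 0.0881). Its d6 decrease of -0.20 ± 0.0874 was lost without any 1 of 3 libraries (highest 0.181). Per kilobase, Pdk1 made up 5.75% of the 4 kinases in K36M d0 cells and 4.54% in WT d0 cells, 13.7% and 20.2% at d4, 42% and 28.2% at d6, and 57.1% and 57.6% in iPSCs. Pdk3 held 77.5% and 68.2% at d0 and 28.1% and 27.2% in iPSCs.

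Of the 3 pyruvate dehydrogenase subunits, only Pdhb was called between K36M and WT cells from d0 to d8. Pdhb, a subunit of the decarboxylating enzyme, was higher in K36M cells at d2, d4, d6 and d8. It was at 158 and 171 CPM in K36M d4 cells, against 130 and 118 in WT d4 cells, and at 181 and 204 against 108 and 115 at d6. The log2 fold changes were 0.41 ± 0.0914 at d2 and 0.41 ± 0.0912 at d4, then 0.79 ± 0.0916 at d6 and 0.25 ± 0.0911 at d8. The d2 call was lost without K36M replicate 1 (edgeR adjusted p 0.0527) and the d8 call without any 1 of 3 libraries (highest 0.168). Pdha1, the partner of Pdhb, and Dlat, the acetyl-transferring subunit, were not called from d0 to d8. At d6 the K36M libraries had 355 and 622 CPM of Pdha1, on either side of the WT libraries at 484 and 524. Its log2 fold change was 0.30 without replicate 1 and -0.51 without replicate 2. That of Dlat at d6 was 0.11 without replicate 1 and -0.23 without replicate 2.

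**Figure D4:**
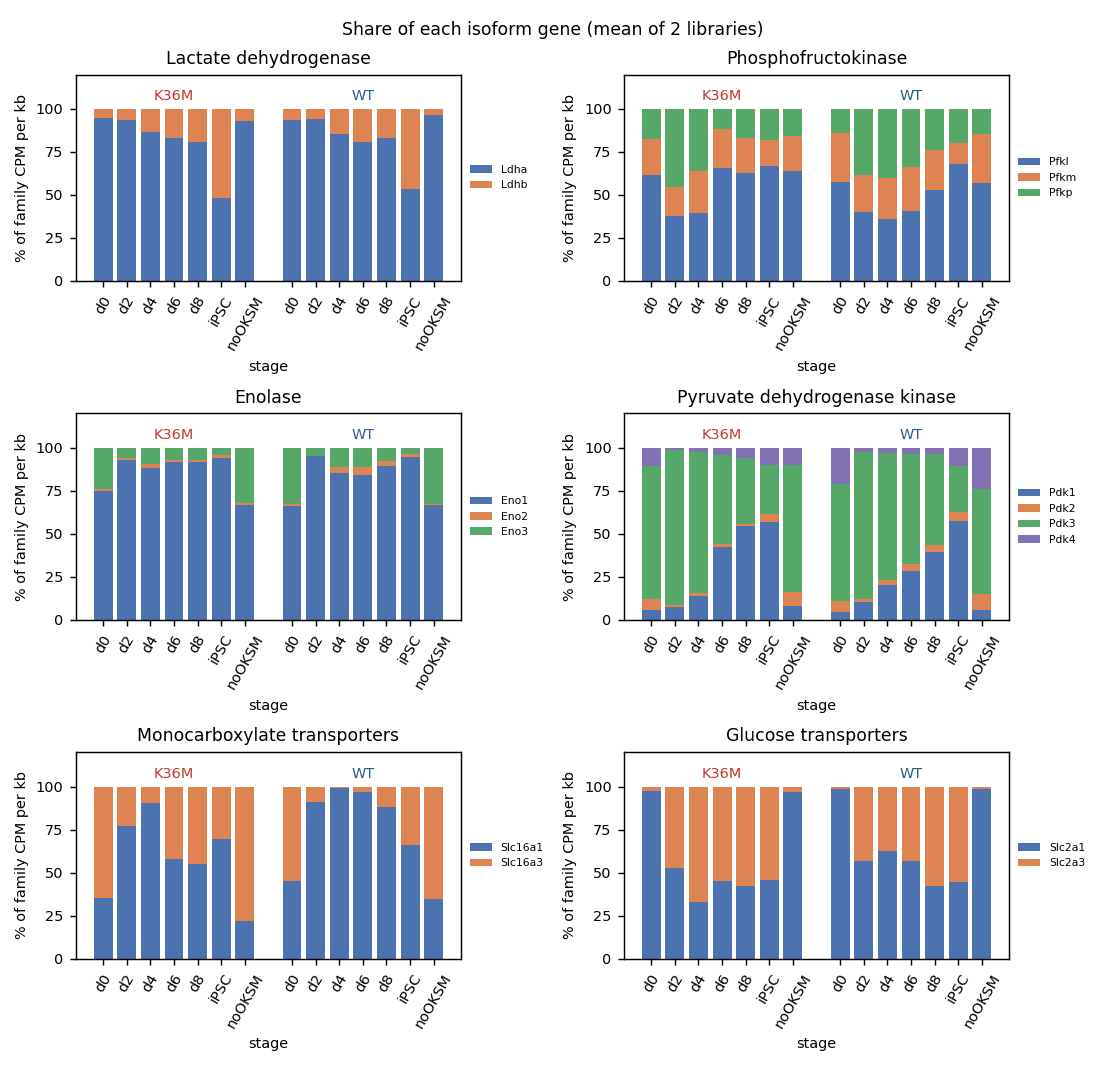
Share of each gene in its family by stage, as a percent of the family's summed CPM per kilobase of exon (mean of 2 libraries), with K36M bars left of WT bars in each panel. Pdk1 and Ldhb have their largest shares in iPSCs in both genotypes, and Slc16a3 is at 0.613% in WT cells at d4 and 9.68% in K36M cells.

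Set against d0, WT cells moved as many of these genes down as up until d8. At d2, 12 were higher and 13 lower than at d0, against 27.1% and 30.7% of all genes. At d4, 12 were higher and 10 lower (28.3% and 29.1%), at d6 11 and 12 (29.1% and 29.9%) and at d8 11 and 11 (32.7% and 31.4%). In WT iPSCs 24 were higher and 4 lower, against 40.1% and 37.4% of all genes. K36M cells had 14 higher and 11 lower at d2 (29.9% and 31.2%) and again 14 and 11 at d4 (36.1% and 32.8%). At d6 they had 23 higher and 7 lower (41.9% and 36%), at d8 20 and 7 (39.5% and 34%), and in iPSCs 22 and 4 (39.4% and 36.1%). The median log2 fold change over the 32 genes against d0 was 0.71 at d6 in K36M cells and -0.18 at d6 in WT cells, beside 0.16 and 0.02 over all genes. These comparisons share their d0 libraries within a genotype. Scaling by total counts instead of TMM moved the median of all genes against d0 by 0.262 to 0.407 at d2 to iPSC. The higher share of all calls then went to 69.4%, against 51% under TMM, for WT d8 and to 68.5%, against 53.8%, for K36M d8. It turned 9 called values round: those of Ldha and Pdk3 in WT d6, Gapdh and Pfkfb3 in WT d8, Pdk3 and Dlat in WT iPSCs, Hk1 and Pdk4 in K36M d8, and Dlat in K36M iPSCs.

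In WT cells 23 of the 32 genes had their highest stage mean, over d0 to iPSC, in iPSCs, and none at d8. In K36M cells 12 peaked in iPSCs, 7 at d6 (Eno1, Gapdh, Ldha, Pdhb, Pfkm, Pgk1 and Tpi1) and 5 at d8 (Pfkfb3, Pgam1, Slc16a3, Slc2a1 and Slc2a3). The d6 peaks of Eno1 and Pfkm rested on K36M d6 replicate 1. Eno1 was at 1781 and 1272 CPM in K36M d6 cells, against 1484 and 1288 in K36M iPSCs. Pfkm was at 114 and 80.4 CPM in K36M d6 cells, against 94.0 and 97.5 at d8. Gapdh in d6 replicate 2, at 1409 CPM, lay below K36M iPSC replicate 1, at 1434. The Pgam1 means were close, at 102.9 CPM at d8 and 101.8 in iPSCs. Shared steps were large. Slc2a3 was 4.58 ± 0.11 (log2) above d0 at d2 in K36M cells and 4.36 ± 0.115 in WT cells. Slc16a1 was 2.42 ± 0.161 and 2.67 ± 0.164 above d0 at d2, at 211 and 202 CPM in K36M d2 cells and 192 and 190 in WT d2 cells, against 38.3 and 39.0 in K36M d0 cells and 31.1 and 29.1 in WT d0 cells. Eno3 fell by 2.00 ± 0.123 in K36M and by 3.18 ± 0.127 in WT cells at d2. Pfkfb4, a hypoxia-responsive Pfkfb, was lower than at d0 at each later stage in both, and it fell by 2.36 ± 0.131 in WT d2 cells. Pdk4 fell by 3.29 ± 0.163 and 3.47 ± 0.135 at d2 and was back at 22.0 and 20.5 CPM in K36M iPSCs and 24.5 and 23.8 in WT iPSCs. The late gains were Pdk1, which was 4.26 ± 0.109 above d0 in K36M iPSCs and 4.64 ± 0.112 in WT iPSCs, and Ldhb, at 4.51 ± 0.14 and 4.10 ± 0.138. Ldhb was at 681 and 623 CPM in K36M iPSCs and 678 and 566 in WT iPSCs.

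Some of these calls against d0 were lost in fits without 1 library. For Pdk3 in WT d6 cells and Hk1 in K36M iPSCs, leaving out any 1 of 4 libraries ended the call. For Aldoa in WT d2 cells any 1 of 3 did so. Such calls did not rest on a single library. In WT cells, calls were lost without 1 library for Aldoa, Aldoc, Pfkfb3 and Ldha at d2 and for Pgam1 at d4. They were lost for Aldoa, Ldha, Pdk3, Pdha1, Hk1, Pdk2 and Pfkl at d6, for Gapdh, Pdha1 and Pfkfb3 at d8, and for Pdk2, Gapdh and Eno2 in iPSCs. In K36M cells they were lost for Gapdh, Eno1, Eno2 and Pfkfb3 at d2 and for Pgk1 and Pfkm at d4. They were lost for Pgam1, Pdha1 and Eno2 at d6, for Ldha, Pdk4 and Hk1 at d8, and for Hk1, Gapdh, Dlat and Eno2 in iPSCs. Large shifts came with the K36M d6 libraries, and not all of them are listed here. The d6 differences between K36M and WT cells shifted too. Without K36M d6 replicate 1 they were -1.81 in place of -0.97 for Pdk2 and 1.69 in place of 2.13 for Pfkl. Without replicate 2 that of Slc16a1 was 0.07 in place of 0.59. Without replicate 1 the d6 value against d0 was 0.49 in place of 0.94 for Gpi1, 0.66 in place of 1.04 for Aldoa, 0.52 in place of 0.89 for Slc16a3, 0.04 in place of 0.23 for Pgam1, 0.39 in place of 0.69 for Pfkp and 0.45 in place of 0.72 for Eno1. It was 0.36 in place of 0.71 for Eno2 and 0.34 in place of 0.56 for Gapdh. Without replicate 2, Pdha1 went to -0.15 in place of 0.31 and Pdk2 to -1.02 in place of -1.57.

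In iPSCs no member was called between K36M and WT cells, where 0.756% and 0.49% of all genes were called higher and lower. The log2 fold changes of the 32 genes ran from -0.48 to 0.18, and 27 of 32 lay below 0, with a median of -0.15 beside 0.00 over all genes. At an unadjusted p under 0.05 there were 8 members by edgeR, and DESeq2 called 2 after adjustment (Hk1 and Pfkp) and 10 before it. The smallest edgeR adjusted p was 0.068, for Hk1, at 165 and 155 CPM in K36M iPSCs and 208 and 212 in WT iPSCs. Fitting the 4 iPSC libraries alone called 1 higher (Pdhb, 0.19) and 12 lower. The 12 were Hk1, Hk2, Gpi1, Pfkl, Pfkp, Aldoa, Aldoc, Pgk1, Ldha, Slc16a3, Pfkfb3 and Pdk1, with log2 fold changes of -0.48 to -0.17. Whether these small differences are called thus depended on the fit.

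In MEFs without OKSM, 12 members were higher and 5 lower in K36M cells, against 18.2% and 16.7% of all genes. Slc2a3 was at 12.5 and 10.7 CPM in K36M noOKSM cells, against 4.89 and 4.19 in WT noOKSM cells (log2 1.35 ± 0.116). Eno2 was at 21.4 and 16.7 CPM against 8.00 and 6.61 (1.38 ± 0.177), and Ldhb at 45.5 and 54.2 against 20.4 and 21.3 (1.26 ± 0.129). For each of these 3 genes both K36M libraries lay above both WT libraries. Slc16a3 was at 142 and 134 CPM in K36M cells and 58.0 and 57.9 in WT cells (1.26 ± 0.155). Lower in K36M cells were Pdk4, at 13.4 and 15.1 CPM against 28.2 and 29.2 (-1.0 ± 0.108), Pfkfb2, at 20.9 and 16.8 against 35.1 and 31.5 (-0.82 ± 0.124), and Hk1, at 125 and 107 against 179 and 181 (-0.63 ± 0.104). Aldoc had the largest difference, 3.32 ± 0.297, from 7.11 and 5.31 CPM in K36M and 0.629 and 0.605 in WT cells. The calls of Pfkl, Pfkp, Hk2, Tpi1, Ldha and Pfkfb4 were lost without 1 library, with highest edgeR adjusted p of 0.0549 to 0.281. Scaling by total counts moved the median of all genes by 0.16 here, and 74.1% of all calls were then higher, against 52.1% under TMM. The summed level of 6 skeletal muscle markers was 212 and 230 CPM in K36M noOKSM cells, against 54.6 and 56.9 in WT noOKSM cells. That of 8 epithelial markers was 190.4 and 213.8 CPM against 14.9 and 17.5, with 6 of 8 called higher, and that of 4 endothelial markers 3.47 and 3.56 CPM against 2.34 and 2.50, with 3 called higher and 1 lower. The part of these lists in the differences was not tested.

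The difference in noOKSM MEFs was not that of d0 MEFs for 9 genes, against 25.1% of all genes. The change from d0 to noOKSM was 1.44 ± 0.252 larger (log2) in K36M than in WT cells for Eno2 and 1.60 ± 0.182 larger for Ldhb, while Pfkfb2 was on the other side at -1.0 ± 0.175. The others were Slc2a3 (0.64), Hk1 (-0.59), Aldoc (2.07), Eno3 (0.64), Pdk1 (0.46) and Pdk3 (0.46). Against d0, noOKSM moved 16 members up and 1 down in K36M cells (18.8% and 15.6% of all genes) and 1 up and 2 down in WT cells (4.15% and 4.06%). Of the 17 K36M calls, 11 were lost without 1 library, and without K36M d0 replicate 2 only 10 calls were made. Of the 3 WT calls, Hk1 and Eno2 were lost without 1 library, and only Ldhb (-0.80 ± 0.131) was called in each such fit. The macrophage sum was 12.6 and 13.1 CPM in K36M d0 cells, against 45.0 and 41.6 in WT d0 cells, and its part was not tested.

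Genes around the 32 did not move as a block. Of 32 tested genes of a list of other glycolysis, lactate and pyruvate genes, 11 were higher and 9 lower in K36M cells at d6, beside 37.3% and 33.7% of all genes, and over d2 to d8 it was 7 and 8 of 28, beside 30.2% and 28.2%. Pkm2, the pyruvate kinase of the last glycolytic step, averaged 2864 CPM in K36M and 2739 CPM in WT cells over d2 to d8 and was not called (log2 0.05 ± 0.0748). Large differences in this list were seen in low genes, Pdha2 at 3.60 ± 0.641, Ldhc at 3.25 ± 0.604 and Slc2a10 at -1.69 ± 0.289, each averaging at most 2.22 CPM in either genotype. Of 11 pentose phosphate genes, 5 were higher and 5 lower over d2 to d8: Taldo1 (0.58 ± 0.169) and Prps1 (0.40 ± 0.0977) were higher, G6pdx (-0.48 ± 0.121), the entry enzyme, and Pgls (-0.59 ± 0.121) lower. All counts over d2 to d8 are to be read against those last shares. Of 18 tricarboxylic acid cycle genes, 0 were higher and 6 lower over d2 to d8, with Idh3b at -0.59 ± 0.0745 and Idh2 at -0.51 ± 0.109 the furthest and a list median of -0.18 beside 0.02 over all genes.

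Of 28 nuclear genes of oxidative phosphorylation, 23 were higher and 0 lower at d6, beside 37.3% and 33.7% of all genes, and 0 were higher and 15 lower at d8, beside 31.6% and 29%. Atp5h, a subunit of ATP synthase, was on both sides, at 0.90 ± 0.174 at d6 and -0.72 ± 0.174 at d8. Of 22 genes of the hypoxia pathway outside glycolysis, 2 were higher and 9 lower at d4, beside 27.1% and 25.8% of all genes, while d6 had 11 and 4 and d8 16 and 2. Car9, a carbonic anhydrase induced by hypoxia, was at 9.44 and 7.30 CPM in K36M d8 cells, against 0.207 and 0.322 in WT d8 cells. Ndrg1 was at 43.7 and 31.9 CPM against 3.61 and 4.08, and at d0 at 63.2 and 68.9 against 29.5 and 24.3. Bnip3, a mitophagy receptor, was lower in K36M cells at d4, at 9.39 and 12.4 CPM against 33.2 and 27.9, and higher at d8, at 165 and 121 against 29.8 and 35.3. Hif1a itself was not called over d2 to d8 (-0.01 ± 0.157). Of 14 tested regulators of metabolic genes, 10 were higher and 1 lower over d2 to d8, beside 30.2% and 28.2% of all genes. Lin28a, an RNA-binding regulator of let-7, was at 5.54 ± 0.474 and Esrrb, also on the pluripotency list, at 4.11 ± 0.456, while Myc was not called (-0.34 ± 0.146). The K36M d6 libraries stood apart from each other, and the list counts at d6 were not redone without either of them. These lists were drawn up with results of these data known, and no test of a list was made.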

How the data were processed

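Poly(A) RNA of 28 libraries was sequenced after a directional library kit, per the labels' protocols. The deposited file holds raw counts of reads per gene, made by the authors with STAR 2.5.0 and HTSeq 0.11.2 against mm9, per the submitters' processing notes. The sources used here do not name its strand setting, its gene annotation or its handling of reads with several matches. Columns were matched to samples by library number, genotype and replicate, and 0 columns were left unused. Gene coordinates and exon lengths are those of GENCODE vM1, which holds 37205 of the 37620 gene IDs.

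Counts were filtered with filterByExpr (minimum count 10, minimum total 15), scaled by TMM and tested with edgeR 4.0.16 in R 4.3.3, by the robust quasi-likelihood F test with 14 residual degrees of freedom over the 14 groups, and 11 in a fit of the 16 day libraries that adjusts for day. The fit over d2 to d8 has no term for a K36M difference that changes with day, so such changes add to its spread. P-values were adjusted by Benjamini-Hochberg over all genes tested. Standard errors are the fold change over the root of F. The K36M against WT test at d4 was run on simulated counts. In these a small set of genes, far fewer than are called in the data, was changed in K36M d4 cells alone. As many were changed up as down. The fit over d2 to d8 and the joint test were not simulated. Values with ± give 1 standard error from the fit.

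The alternatives were other scalings (RLE, total counts), no filter, DESeq2 1.42.0, a replicate block, fits of the compared libraries alone and leaving out each library. Leaving out all d6 libraries was added after seeing the data. Outside the replicate block, replicate numbers were not used to pair the libraries. The members and the other lists were chosen with earlier results of these data known. Library values are given, per comparison, for the members past the test with a mean of at least 5 CPM and the largest change, up to 3 each way at a stage and up to 6 each way over d2 to d8, and of each other list for up to 4 genes; 1 gene so chosen is not reported here. Other members and genes given with library values, and the printed promoters, were chosen after their values were seen. The marker lists not yet mentioned summed, over the 28 libraries, to 2.34 to 132 CPM (endothelial), 91.9 to 324 CPM (neuronal) and 5.46 to 215 CPM (adipocyte), and their part in the results was not tested.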

Additional observations from a re-analysis of the deposited data

Results flagged for a closer look

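The K36M difference changed along the course, by the joint edgeR test of d2, d4, d6, d8 and iPSC against d0, in 29 of the 32 genes, beside 75.8% of all genes tested. Among the 29, 8 genes were called higher in K36M cells at some stages and lower at others. They were Hk2 (edgeR adjusted p 7.6e-06 in the joint test), Pfkm (2.22e-08), Aldoc (4.95e-08), Tpi1 (2.21e-07), Eno2 (1.92e-06), Eno3 (5.84e-05), Pdk1 (1.19e-11) and Pdk4 (3.61e-10). Pdk1, at 17.1 and 20.4 CPM in K36M d4 cells against 47.7 and 52.3 in WT d4 cells, and at 193 and 172 against 90.0 and 102 at d8, had the smallest p of the 8. Aldoc, Tpi1, Pdk1 and Pdk4 had calls in both directions whichever library was left out. For Hk2 (d6), Pfkm (d0), Eno2 (d2) and Eno3 (d2) the calls in 1 of the directions were lost without 1 library.

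The K36M difference in MEFs without OKSM was not that in d0 MEFs for 9 of the 32 genes by the edgeR test of the difference between them, near the 25.1% of all genes so called. The count ran from 6 to 10 with each library left out in turn. The noOKSM difference minus the d0 difference, on the log2 scale, was 0.64 for Slc2a3, -0.59 for Hk1, 2.07 for Aldoc, 1.44 for Eno2, 0.64 for Eno3, 1.60 for Ldhb, -1.0 for Pfkfb2, 0.46 for Pdk1 and 0.46 for Pdk3. The groups hold 2 libraries each, too few to look for a library far from the others of its group.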

How the results depend on the processing

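Under RLE scaling, total count scaling, no filter, DESeq2, fits of the compared libraries alone and a replicate block, the count of members called stayed within 1.5 times its reported value except as follows. For K36M against WT at d2 it was 21 in the fit of those libraries alone, against 11. For iPSCs it was 4 with no filter, 2 by DESeq2 and 13 in the fit of those libraries alone, against 0. For WT noOKSM against d0 it was 7 with no filter and 5 in the fit of those libraries alone, against 3. For the K36M difference in noOKSM against that at d0 it was 14 under total count scaling, against 9. The cause was not tested. Over d2 to d8, without the d6 libraries, Pfkm was at 0.34 and Eno2 at -0.44 with the calls lost, and 16 members were called, against 18.

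With each library left out in turn, the K36M against WT counts ran from 5 to 6 at d0 (reported 8), 6 to 8 at d2 (reported 11), 16 to 17 at d4, 22 to 26 at d6, 19 to 21 at d8, 13 to 15 in noOKSM and 15 to 19 over d2 to d8, and stayed at 0 in iPSCs. Those fits have fewer libraries. Against d0 they ran, in K36M cells, from 22 to 23 at d2, 24 to 25 at d4, 28 to 29 at d6, 25 to 27 at d8, 23 to 25 in iPSCs and 10 to 14 in noOKSM. In WT cells they ran from 22 to 24 at d2, 21 to 22 at d4, 17 to 22 at d6, 20 to 21 at d8, 26 to 27 in iPSCs and 1 to 3 in noOKSM. The joint test gave 26 to 31 and the noOKSM difference 6 to 10. A group left with 1 library is assumed to vary like the others.

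Over all members and comparisons with a signed value, the replicate block left 637 values on their side of the threshold and moved 3 past it, with no called value changing sign. Over genes, the deviations between replicates in K36M and in WT cells of the same stage correlated at -0.0569 to 0.131. Same-numbered K36M and WT libraries of a stage thus shared little deviation. Pairing across the stages of a genotype was not tested. Of the single values called in the reported or the alternative fit, 14 changed sign under total count scaling, all against d0, and 3 when a K36M d6 library was left out. Values called in neither fit are not counted here.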
